A study of Mus musculus with 4 samples.

Results

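Olfm4, Gkn3, Kif12, Smoc2, Cdca7, Prom1 and Msi1 are markers of the stem cells at the base of the intestinal crypt that are not themselves feedback genes of Wnt signalling. They are 7 of the 18436 genes in the table analysed, and all 7 were found in it by symbol. The set was put together with the values of these mice in view, and the difference between genotypes was among the values that chose it. The levels and differences of the 7 genes are therefore given as a description, without a test of their own. Calls from the fit across all genes are part of that description and are not evidence about the 7 genes.

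The study asked what the loss of CREPT, a nuclear protein encoded by Rprd1b that takes part in transcription by RNA polymerase II, does to intestinal stem cells. RNA was sequenced from sorted crypt cells of 4 C57BL/6 mice, 2 of each genotype, and the values are in FPKM (the fragments of a gene divided by the length of its transcript and by the size of the library), a unit that allows levels to be compared between genes. The Lgr5-WT mice carried Lgr5-EGFP-IRES-creERT2, which places GFP and a tamoxifen-inducible Cre recombinase under the control of the Lgr5 gene. The Lgr5-CREPTKO mice carried the same allele together with CREPT fl/fl, in which Cre removes part of the CREPT gene. All 4 mice were injected intraperitoneally with tamoxifen, 1 mg a day for 5 days, and the cells brightest for GFP were sorted on day 7. Cre is thus made in Lgr5-expressing cells, whose progeny inherit the deletion, and the Lgr5 allele is mosaic in adult intestine. The study used mice of both sexes aged 6 to 8 weeks, without the age or sex of each of these 4. The sorted cells were a pool from each mouse, so fewer cells of a type and less RNA per cell cannot be told apart.

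Crypt base columnar stem cells sit between Paneth cells, express Lgr5, divide continuously and give rise to every lineage of the intestinal epithelium. Wnt and Notch signals from their neighbours keep them in that state, and Olfm4 is widely used to locate them. Of the 7 genes, Olfm4, Gkn3 and Smoc2 encode secreted proteins, Prom1 encodes a membrane glycoprotein, Kif12 a motor protein of the kinesin family, Cdca7 a nuclear protein that works with a chromatin remodeller, and Msi1 an RNA-binding protein that represses translation.

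The promoters of the pair with the lowest levels in Lgr5-CREPTKO mice relative to Lgr5-WT mice, Gkn3 and Kif12, are shown beside that of Olfm4, the most abundant of the set. Each sequence is from RefSeq on GRCm38.p6, runs 5′ to 3′ on the strand of the gene from 250 bases before to 50 bases after the annotated start, and has in capitals every match to one of the motifs searched.
Gkn3, chr6:87388886-87389185, minus strand: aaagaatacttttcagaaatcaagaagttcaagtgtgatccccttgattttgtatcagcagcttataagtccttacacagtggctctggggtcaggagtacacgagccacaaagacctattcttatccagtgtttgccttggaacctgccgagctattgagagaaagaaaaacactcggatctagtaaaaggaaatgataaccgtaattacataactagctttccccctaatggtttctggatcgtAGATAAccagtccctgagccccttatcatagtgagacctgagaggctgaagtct
Kif12, chr4:63172082-63172381, minus strand: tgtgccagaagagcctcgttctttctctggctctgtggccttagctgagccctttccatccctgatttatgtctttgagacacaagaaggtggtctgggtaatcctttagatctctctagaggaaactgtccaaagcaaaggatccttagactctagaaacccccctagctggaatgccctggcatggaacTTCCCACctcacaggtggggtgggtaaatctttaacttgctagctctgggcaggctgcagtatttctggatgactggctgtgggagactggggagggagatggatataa
Olfm4, chr14:80000052-80000351, plus strand: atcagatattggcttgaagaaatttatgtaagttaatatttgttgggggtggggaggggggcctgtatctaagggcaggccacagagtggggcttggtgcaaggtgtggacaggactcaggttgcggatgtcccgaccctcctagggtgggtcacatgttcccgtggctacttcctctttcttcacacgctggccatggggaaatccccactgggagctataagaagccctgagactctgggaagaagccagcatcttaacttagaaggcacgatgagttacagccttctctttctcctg

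Both strands were searched for 8 motifs: CTTTGAT for the TCF/LEF factors of the Wnt pathway, GTGGGAA for RBPJ of the Notch pathway, CAGCTG for the E-box of ASCL2, CACGTG for the E-box of MYC, TTTCCCGC for E2F, TTTATNG for CDX2, AGATAA for the GATA factors of the intestine, and TATAAA for the TATA box. Matches to the CDX2 motif and to the TATA box can cover the same bases. The Gkn3 promoter held a GATA match at position -4 from the start, and 11.2% of 32851 mouse promoters of the same length hold one. The Kif12 promoter held an RBPJ match on the reverse strand at position -59, a motif that 6.38% of promoters hold. None of the 8 motifs was found in the Olfm4 window. The other motifs occur in 3.73% (TCF/LEF), 16.3% (ASCL2 E-box), 7.15% (MYC E-box), 1.07% (E2F), 10.9% (CDX2) and 13.6% (TATA box) of the promoters. In the Cdca7 promoter, an RBPJ match lay at position -227 and an E2F match at -71, both on the reverse strand, and neither of the Prom1 windows held a match. The Gkn3 window had a GC content of 42.7% and 5 CpG dinucleotides, that of Kif12 50.3% and 1, that of Olfm4 52.3% and 5, and that of Cdca7 59.3% and 26, beside medians of 52.7% and 7 over all promoters. The matches describe letters in these windows and are not evidence that a factor binds there.

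Rprd1b was at 17.69 and 18.09 FPKM in the Lgr5-WT mice and at 6.65 and 7.36 FPKM in the Lgr5-CREPTKO mice, and it fell by 1.29 ± 0.0946 (SE) on the log2 scale (limma, adjusted p = 0.0280). The stem cell receptor Lgr5, which drives the sorted GFP, was at 47.67 and 37.70 FPKM in Lgr5-WT and at 52.04 and 60.10 FPKM in Lgr5-CREPTKO mice, a log2 fold change of 0.40 that did not pass (limma, adjusted p = 0.176). Ascl2, a transcription factor of the same cells, was at 34.57, 37.54, 43.13 and 46.94 FPKM in the same order of mice (0.32, limma, adjusted p = 0.113). The defining genes of crypt base stem cells were thus present in every library. FPKM summed to between 468830 and 499327 in a library, 12621 genes that averaged 0.5 FPKM or more were tested, and same-genotype mice correlated across these genes at r = 0.983 (Lgr5-WT) and 0.977 (Lgr5-CREPTKO). The smallest values of genes of known length gave a step of about 0.0552 to 0.0584 FPKM for 1 fragment on 1 kilobase, similar in the 4 libraries. The step is approximate, because between 62.6% and 71.1% of the smallest values in a library lay near it.

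**Figure D1:**
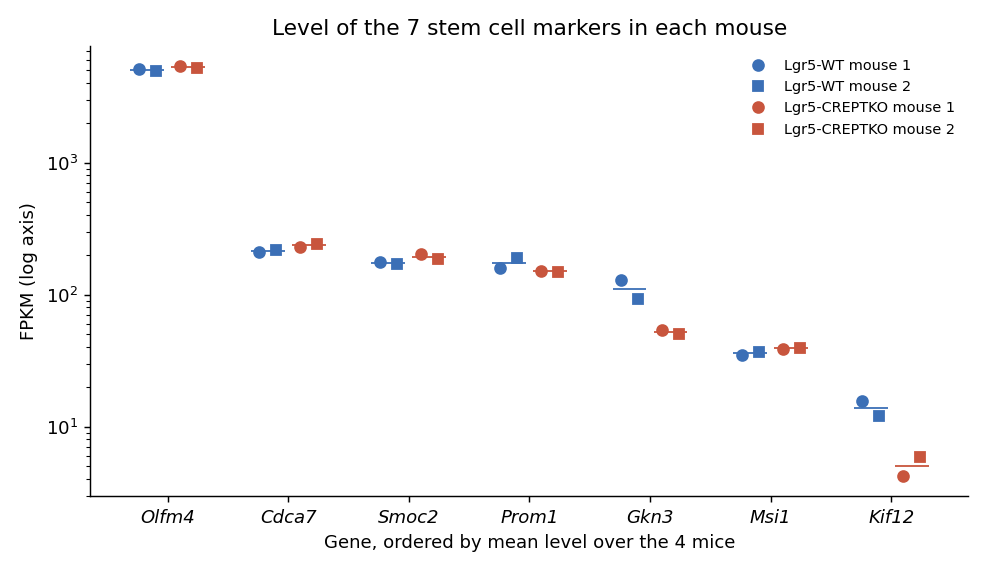
Level of each of the 7 stem cell markers in FPKM (log axis), with 1 point per mouse and a short line at the mean of each genotype (n = 2 mice each, blue Lgr5-WT, red Lgr5-CREPTKO, circle mouse 1, square mouse 2). Olfm4 sits at 4931.99 FPKM or more in every mouse, and the red points of Gkn3 and Kif12 lie well below the blue ones.

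In Lgr5-CREPTKO cells, Gkn3 stood at 47.3% and Kif12 at 36.6% of the Lgr5-WT mean, whereas Olfm4, Cdca7, Smoc2 and Msi1 stood between 105.2% and 112.4% of it and Prom1 at 86.9%. On the log2 scale the 7 differences (Lgr5-CREPTKO minus Lgr5-WT) ran from -1.37 for Kif12 to 0.17 for Smoc2, with a median of 0.07 beside a median of -0.01 over all genes tested. In the fit across all genes, Gkn3 and Kif12 were past an adjusted p of 0.05, both lower, and none of the 7 was past it in the higher direction. Among all 12621 genes, 2.67% were called lower and 0.412% higher. The genes were selected on this same contrast, so nothing is read from their share against the background. Without any 1 of the 4 mice, a genotype has 1 mouse, too few to judge calls. Only the size of the difference is given for these fits. The log2 fold change of Gkn3 was -0.82 without Lgr5-WT mouse 1, -1.29 without Lgr5-WT mouse 2, and -1.11 and -1.0 without Lgr5-CREPTKO mouse 1 and 2. That of Kif12 was -1.18, -1.55, -1.16 and -1.58 with the same mice left out.

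**Figure D2:**
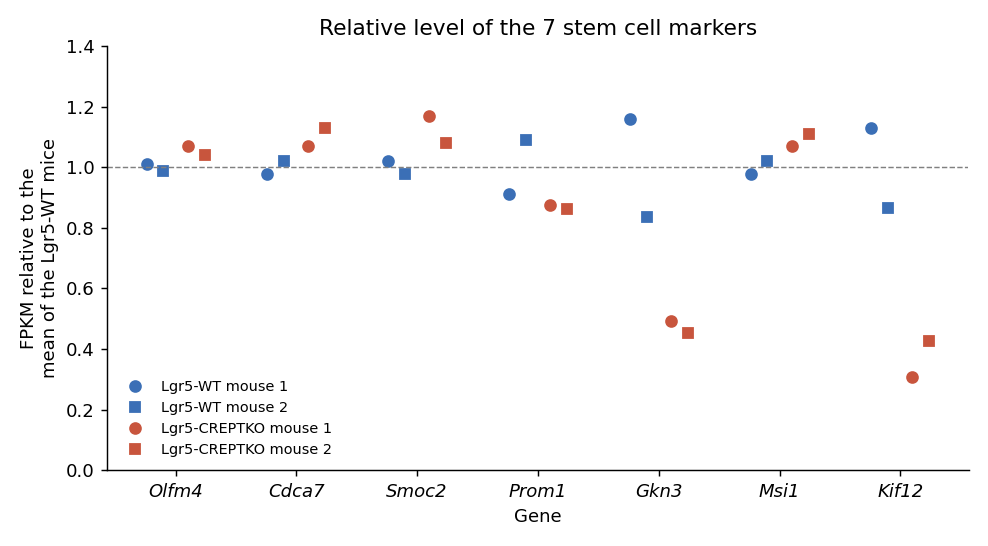
FPKM of the 7 markers in each mouse, divided by the mean of the 2 Lgr5-WT mice (dashed line at 1). The Lgr5-CREPTKO mice lie at 0.492 and 0.454 for Gkn3 and at 0.308 and 0.425 for Kif12, and between 0.863 and 1.17 for the other 5 genes.

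Olfm4, on chromosome 14 (80000302-80023141, plus strand), encodes olfactomedin 4, a glycoprotein that crypt base cells secrete in large amounts. It was at 5076.86 and 4931.99 FPKM in the Lgr5-WT mice and at 5350.90 and 5181.04 FPKM in the Lgr5-CREPTKO mice. Both Lgr5-CREPTKO values lay above both Lgr5-WT values, by little: the log2 fold change was 0.07 ± 0.0954 (SE), with a 95% interval from -0.17 to 0.32. Olfm4 was the gene of second highest FPKM in each of the 4 libraries and made up 1.02% and 0.988% of all FPKM in Lgr5-WT and 1.14% and 1.09% in Lgr5-CREPTKO mice. Its mean was 23.3 times that of Cdca7, the next of the 7, in Lgr5-WT and 22.3 times in Lgr5-CREPTKO mice.

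Gkn3, on chromosome 6 (87383319-87388935, minus strand), belongs to the gastrokines, small proteins secreted by the stomach lining, and is also expressed in crypt base stem cells. The Lgr5-WT mice had 128.17 and 91.94 FPKM and the Lgr5-CREPTKO mice 54.10 and 49.94 FPKM. The genotypes did not overlap, and the 2 Lgr5-WT mice were farther apart than the 2 Lgr5-CREPTKO mice. The means were 110.1 ± 25.6 and 52.0 ± 2.94 FPKM (SD, n = 2), and the log2 fold change was -1.06 ± 0.168 (SE; 95% interval -1.49 to -0.62). By the step of 1 fragment, these values rest on about 1900, 1400, 840 and 730 fragments, for which counting error alone is 2.3% to 3.7%. In the order of all genes by FPKM, Gkn3 held places 541 and 817 in Lgr5-WT and 1392 and 1579 in Lgr5-CREPTKO mice.

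Smoc2, on chromosome 17 (14279490-14404790, plus strand), encodes a calcium-binding protein of the extracellular matrix related to SPARC. It was at 176.47 and 169.00 FPKM in Lgr5-WT and at 202.28 and 185.86 FPKM in Lgr5-CREPTKO mice, a log2 fold change of 0.17 ± 0.0765 (SE; 95% interval -0.03 to 0.36). Both Lgr5-CREPTKO mice were above both Lgr5-WT mice, and the direction is opposite to that of Gkn3, the other secreted stem cell product of middling level. For every 100 FPKM of Smoc2 there were 72.6 and 54.4 FPKM of Gkn3 in the Lgr5-WT mice and 26.7 and 26.9 in the Lgr5-CREPTKO mice. Against 100 FPKM of Olfm4 the amounts of Gkn3 were 2.52 and 1.86 in Lgr5-WT and 1.01 and 0.964 in Lgr5-CREPTKO mice, so the secreted markers did not keep their proportions within a library. The short gene 4930474M22Rik (1.21 to 2.21 FPKM) lies inside the span of Smoc2, and whether counting used the strand is not given in the sources used here.

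Prom1, on chromosome 5 (43993621-44102047, minus strand), encodes prominin 1, a glycoprotein of membrane protrusions found on stem cells and on other crypt cells. It was at 158.06 and 188.45 FPKM in Lgr5-WT and at 151.81 and 149.44 FPKM in Lgr5-CREPTKO mice. The genotypes did not overlap, but the lower Lgr5-WT mouse was closer to the Lgr5-CREPTKO mice than to the other Lgr5-WT mouse. The log2 fold change was -0.20 ± 0.102 (SE; 95% interval -0.46 to 0.07).

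Kif12, on chromosome 4 (63157948-63172145, minus strand), encodes a kinesin, one of the motors that move cargo along microtubules. It was the least abundant of the 7 in each mouse, at 15.63 and 11.94 FPKM in Lgr5-WT and at 4.24 and 5.86 FPKM in Lgr5-CREPTKO mice. No value of one genotype reached the range of the other. The mice of each genotype differed from each other by more than they did in most genes that averaged 10 FPKM or more. Kif12 itself averaged 9.42 FPKM, below that limit. The means were 13.8 ± 2.61 and 5.05 ± 1.15 FPKM (SD, n = 2), with a log2 fold change of -1.37 ± 0.201 (SE; 95% interval -1.88 to -0.85). About 610, 480, 170 and 230 fragments lie behind the 4 values, with a counting error of 4.1% to 7.6%. Its place in the order of all genes went from 5238 and 6218 in Lgr5-WT to 9252 and 8531 in Lgr5-CREPTKO mice.

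Cdca7, on chromosome 2 (72476187-72486892, plus strand), is expressed in dividing cells, and its product recruits the chromatin remodeller HELLS. It was at 209.59 and 219.44 FPKM in Lgr5-WT and at 230.40 and 242.82 FPKM in Lgr5-CREPTKO mice, a log2 fold change of 0.14 ± 0.0711 (SE; 95% interval -0.04 to 0.32). Msi1, on chromosome 5 (115359059-115455698, plus strand), encodes Musashi 1, which binds messenger RNAs and represses their translation. It was at 34.97 and 36.64 FPKM in Lgr5-WT and at 38.44 and 39.67 FPKM in Lgr5-CREPTKO mice, a log2 fold change of 0.12 ± 0.0718 (SE; 95% interval -0.06 to 0.31). For both genes the Lgr5-CREPTKO mice lay just above the Lgr5-WT mice. For every 100 FPKM of Msi1 there were 44.7 and 32.6 FPKM of Kif12 in the Lgr5-WT mice and 11.0 and 14.8 in the Lgr5-CREPTKO mice.

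In all 7 genes the genotypes did not overlap. Gkn3, Kif12 and Prom1 were lower in both Lgr5-CREPTKO mice than in either Lgr5-WT mouse, a pattern that 31% of all genes tested had, and Olfm4, Cdca7, Smoc2 and Msi1 were higher, a pattern that 25.6% had. With 2 mice in a genotype, a lack of overlap was therefore common. The spread between same-genotype mice also differed among the 7. It is given as a description, since the difference between genotypes was among the values that chose them. The 2 Lgr5-WT mice differed by 0.48 (log2) in Gkn3, by 0.37 in Kif12 and by 0.25 in Prom1, more than 96.7%, 94.5% and 86.6% of the 6898 genes that averaged 10 FPKM or more. The 2 Lgr5-CREPTKO mice differed by 0.42 in Kif12, more than 95.6% of those genes did, but only by 0.11 in Gkn3 and 0.02 in Prom1. In Olfm4, Cdca7, Smoc2 and Msi1, same-genotype mice were 0.04 to 0.12 apart, beside medians of 0.102 and 0.101 over genes. Gkn3 and Kif12 thus combined the largest differences between genotypes among the 7 with more spread between the Lgr5-WT mice than most genes of at least 10 FPKM showed.

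The order of levels in Lgr5-WT mice was Olfm4, Cdca7, Prom1, Smoc2, Gkn3, Msi1 and Kif12, and of neighbours in it only Prom1 (mean 173.3 FPKM) and Smoc2 (172.7 FPKM) overlapped between mice. In Lgr5-CREPTKO mice Smoc2 (194.1 FPKM) stood above Prom1 (150.6 FPKM), no neighbours overlapped, and the other 5 places were the same. The distance between neighbours changed where Gkn3 and Kif12 were involved. The mean of Gkn3 was 3.07 times that of Msi1 in Lgr5-WT and 1.33 times in Lgr5-CREPTKO mice, and the mean of Msi1 was 2.6 times that of Kif12 in Lgr5-WT and 7.73 times in Lgr5-CREPTKO mice.

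Of the 9020 genes that averaged 5 FPKM or more, those whose pattern over the 4 mice was nearest to each marker were found by Euclidean distance on the log2 scale, relative to the Lgr5-WT mean. With 4 mice, many genes can share a pattern, and the distance is a description. Nearest to Gkn3 were Ttr (distance 0.141), with 23.73, 18.67, 9.97 and 10.12 FPKM, then Cenpm (0.196) and Tinf2 (0.209). Nearest to Kif12 were Slc52a2 (0.149), with 11.36, 9.71, 3.40 and 4.62 FPKM, then 2310009A05Rik (0.164) and Nelfe (0.2), a subunit of the complex that pauses RNA polymerase II, with 35.76, 33.46, 11.13 and 14.96 FPKM. The neighbours of the markers that differed little were closer. They were Prps1l3 (0.0104), Mrpl42 and Ndrg3 for Olfm4, Pkp4 (0.00395), Wipi2 and Snx12 for Cdca7, and Tha1 (0.0168), Ttyh3 and Pex3 for Smoc2. For Prom1 they were Zfp839 (0.0176), Tmem18 and Rad1, and for Msi1 R3hdm4 (0.0128), Slc25a3 and Ubtf.

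The genes next to Gkn3 and Kif12 on the chromosome were close to 0 or without a like difference. Gkn2, beside Gkn3, was listed at 0 in 3 mice and at 0.07 FPKM in Lgr5-CREPTKO mouse 2, and Bmp10 on the other side reached at most 0.04 FPKM. Ambp, beside Kif12, was at 2.06 and 1.36 FPKM in Lgr5-WT and at 1.37 and 1.91 FPKM in Lgr5-CREPTKO mice, a log2 fold change of -0.04 that limma did not call, and Col27a1 was at 0.07 to 0.21 FPKM. These 4 genes were named by their position.

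The other crypt base stem cell genes were a list of 30, all measured and tested. The study had shown 5 of them, and 5 of the 7 markers, among genes of a published stem cell signature. It described that signature as barely affected by the loss of CREPT in these sorted cells, and the genes it showed included Gkn3 and Kif12. The study added that such data cover only the Lgr5-expressing cells that remained. In crypts of mice without CREPT in the intestinal epithelium, it reported Lgr5 and Olfm4 as decreased. Of the list of 30, none was called lower or higher by limma, while an unadjusted p under 0.05 was met by 2 lower and 9 higher genes. Over all 12621 genes, 1916 (15.2%) were lower and 1170 (9.27%) higher at that level, the background for each such count given here from the fit of all 4 mice. Their log2 fold changes had a median of 0.21, against -0.01 over all genes tested, and 21 of 30 were above 0. They ran from -0.46 for Kcne3, a potassium channel subunit, to 0.46 for Fstl1, a secreted protein of the SPARC family. The most abundant was Clca3b, at 1406.83 and 1698.01 FPKM in Lgr5-WT and at 1278.93 and 1455.18 FPKM in Lgr5-CREPTKO mice (-0.18). Slc12a2, an ion cotransporter used as a marker of these cells, was at 425.33 and 380.16 FPKM in Lgr5-WT and at 574.15 and 517.02 FPKM in Lgr5-CREPTKO mice (0.44, limma, adjusted p = 0.0811). Both Lgr5-CREPTKO mice were above both Lgr5-WT mice in 16 of the 30 genes and below them in 3. Of all genes tested, 25.6% were above and 31% below in this way. Summed, the 30 genes reached 3809.4 and 3838.7 FPKM in Lgr5-WT and 3999.6 and 4041.6 FPKM in Lgr5-CREPTKO mice. The difference in Gkn3 and Kif12 thus stood beside a slightly higher sum of other markers of the same cells. Clca3b (-0.18) makes the largest part of that sum, so the sum follows it more than the 21 genes above 0. With the values of each library scaled to the same sum, Igfbp4 and Soat1 were called higher (log2 fold changes 0.53 and 0.49).

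**Figure D3:**
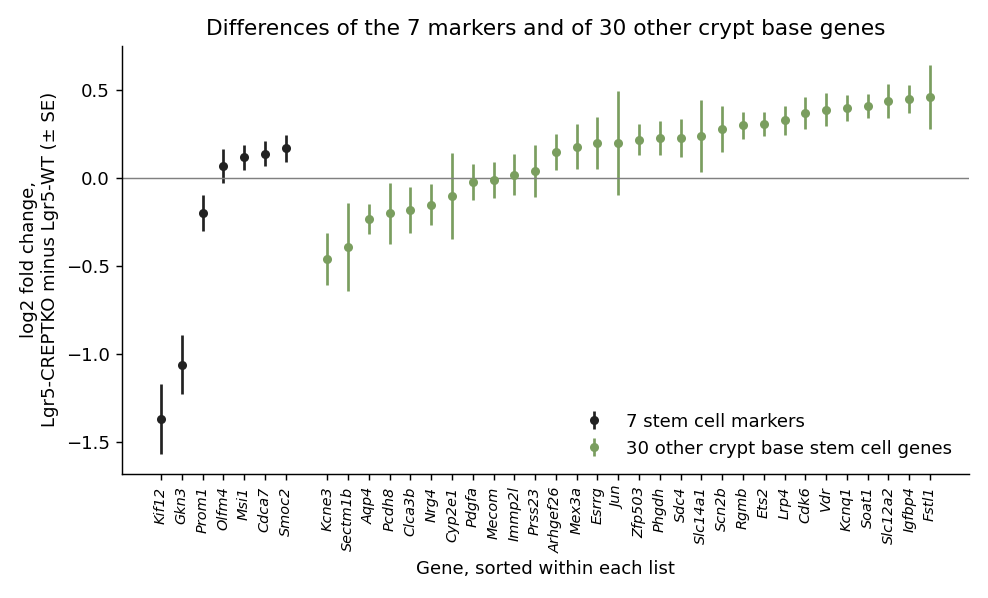
Log2 fold change (Lgr5-CREPTKO minus Lgr5-WT, n = 2 mice each) with its SE for the 7 markers (black) and the 30 other crypt base stem cell genes (green), sorted within each list. Kif12 (-1.37) and Gkn3 (-1.06) lie below the other crypt base genes, whose lowest value is -0.46 for Kcne3. The 7 markers were chosen with this contrast in view.

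Genes ascribed to reserve stem cells, a slower-cycling pool that can replace crypt base cells after injury, numbered 8, and all were tested. None was called in either direction by limma, an unadjusted p under 0.05 was met by 0 lower and 3 higher genes, and the median log2 fold change was 0.06. The most abundant were Krt19, a keratin, at 799.23 and 743.57 FPKM in Lgr5-WT and 806.88 and 927.66 FPKM in Lgr5-CREPTKO mice, and Hopx, a homeodomain protein, at 162.46, 168.98, 150.53 and 166.31 FPKM. Clu, a secreted chaperone that marks cells of the regenerating crypt, was at 2.75 and 2.62 FPKM in Lgr5-WT and at 5.96 and 9.24 FPKM in Lgr5-CREPTKO mice (1.32, limma, adjusted p = 0.054). Dclk1, which also marks tuft cells, was at 2.12, 5.13, 1.74 and 0.48 FPKM (-1.37, adjusted p = 0.207 by limma). Clu was called higher with a filter of at least 1 FPKM and with libraries scaled to the same sum, so its place beside the threshold rests on those choices.

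Relatives of the 7 markers were listed by family, together with trefoil factors and with the partner of Cdca7 and DNA methylation genes. They were 69 genes in all, of which 41 were tested. None was called by limma, with 2 lower and 8 higher at an unadjusted p under 0.05, beside 15.2% and 9.27% of all genes. The other olfactomedins were scarce: 6 were in the table, and Olfm1, the only 1 tested, was at 2.05 and 3.21 FPKM in Lgr5-WT and at 1.46 and 1.08 FPKM in Lgr5-CREPTKO mice (-0.81, limma, adjusted p = 0.143). Of the gastrokines and trefoil factors, 3 of 5 were in the table. Tff3, a trefoil peptide secreted by goblet cells, was at 537.33 and 936.55 FPKM in Lgr5-WT and at 300.36 and 324.32 FPKM in Lgr5-CREPTKO mice (-1.18, limma, adjusted p = 0.0823). Gkn3 and Tff3 were both lower in both Lgr5-CREPTKO mice, but Gkn3 was higher in Lgr5-WT mouse 1 and Tff3 in Lgr5-WT mouse 2. Tff2, also tested, went the other way near the floor, at 0.1 and 0 FPKM in Lgr5-WT and 0.2 and 2.39 FPKM in Lgr5-CREPTKO mice (1.38).

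The kinesins other than Kif12 numbered 39 in the table, of which 29 were tested. None was called by limma, an unadjusted p under 0.05 was met by 0 lower and 7 higher genes (15.2% and 9.27% of all genes), and the median log2 fold change was 0.07. The values ran from -0.16 for Kif20a, a mitotic kinesin, to 0.83 for Kif26b. The most abundant were Kif5b, a conventional kinesin of cargo transport, at 36.81, 36.08, 36.32 and 34.15 FPKM, and Kif1c at 33.86, 35.37, 37.97 and 38.49 FPKM. The log2 fold change of Kif12, at -1.37, lay below the lowest of the other 29. Kif12 was chosen with this contrast in view, so its place outside their range is a description only.

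**Figure D4:**
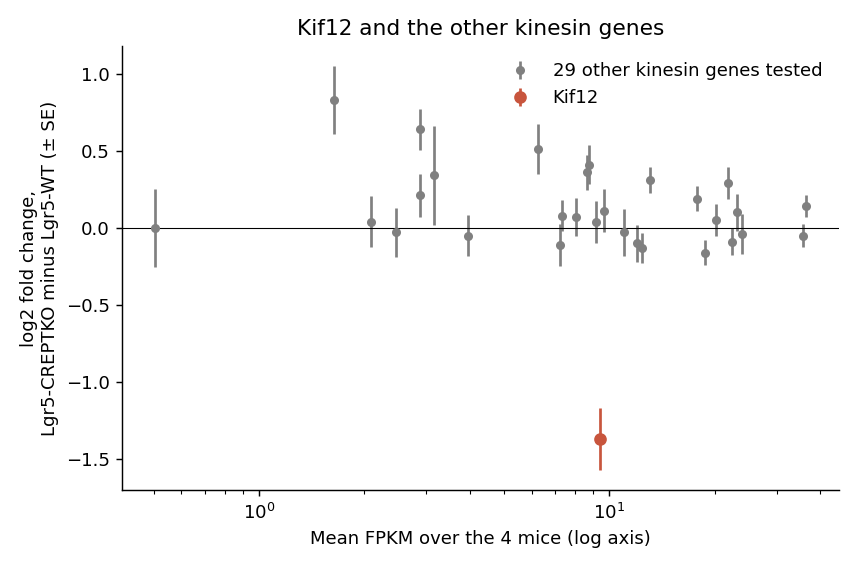
Log2 fold change (Lgr5-CREPTKO minus Lgr5-WT, with its SE, n = 2 mice each) against the mean FPKM over the 4 mice (log axis) for Kif12 (red) and the 29 other kinesin genes tested (grey). The grey points lie between -0.16 and 0.83 and Kif12 at -1.37. Kif12 was chosen with this contrast in view.

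Among the SPARC relatives of Smoc2, Fstl1 alone passed the filter, while Smoc1 was at 0.10 to 0.63 FPKM and Sparc at no more than 0.17 FPKM. Cdca7l, the paralog of Cdca7, was at 38.75 and 37.58 FPKM in Lgr5-WT and at 40.10 and 45.77 FPKM in Lgr5-CREPTKO mice (0.16), and Msi2, the paralog of Msi1, at 10.19, 9.88, 8.55 and 8.87 FPKM (-0.19). Neither was called by limma. The partner of Cdca7 and the enzymes of DNA methylation, 6 genes, included none called (limma), with 0 lower and 1 higher at an unadjusted p under 0.05 and a median of 0.17. Hells itself was at 37.46, 24.68, 29.56 and 26.64 FPKM (-0.11), and Uhrf1, which recognises newly replicated DNA, at 53.66, 39.22, 52.68 and 49.20 FPKM (0.15). In both, the genotypes overlapped.

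Markers of some other cell types that a GFP gate on crypts could hold followed the genotype. The 12 enteroendocrine markers were all lower in both Lgr5-CREPTKO mice, with a median log2 fold change of -1.34, and summed to 178.3 and 201.5 FPKM in Lgr5-WT and to 53.4 and 66.7 FPKM in Lgr5-CREPTKO mice. Of these, 6 fell (limma, past the adjusted threshold): the hormone genes Ghrl (-3.50), Tac1 (-1.86) and Cck (-1.65), the transcription factors Pax4 (-1.67) and Neurod1 (-1.56), and the granule protein Chgb (-1.18). Of 10 goblet cell markers, 9 were lower in both Lgr5-CREPTKO mice, with a median of -1.09 and sums of 1479.4, 2467.0, 812.2 and 943.8 FPKM, and Spink4 (-1.30) and Ern2 (-1.17) fell. Over all genes tested, 31% were lower in both Lgr5-CREPTKO mice than in either Lgr5-WT mouse. The tuft markers had a median of -1.16 over 7 tested and sums of 20.8, 45.0, 17.1 and 7.22 FPKM, and limma called none, with 4 lower and 0 higher at an unadjusted p under 0.05. With each mouse left out in turn, the medians ran from -1.68 to -1.32 (enteroendocrine), -1.5 to -0.63 (goblet) and -1.69 to -0.78 (tuft). The study had itself picked some enteroendocrine and goblet genes from these samples, so the lists are not independent evidence of their direction.

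The remaining lists were called in neither direction by limma. The 10 Paneth markers summed to 1615.9 and 1372.8 FPKM in Lgr5-WT and to 937.7 and 2790.5 FPKM in Lgr5-CREPTKO mice, with a median of 0.30 and 0 genes at an unadjusted p under 0.05 in either direction. The 10 enterocyte markers summed to 720.8, 877.2, 554.2 and 824.9 FPKM (median -0.04, 2 lower and 0 higher unadjusted), and the 10 markers of proliferating crypt cells to 763.9, 678.3, 733.2 and 645.7 FPKM (median -0.15, 3 lower and 0 higher unadjusted). Immune markers summed to 12.4, 15.3, 6.58 and 22.5 FPKM, with 8 tested and 0 at an unadjusted p under 0.05 (limma). Stromal markers summed to between 0.62 and 1.13 FPKM in every library, and 0 of 10 passed the filter.

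Gkn3 and Kif12 followed the genotype as the enteroendocrine, goblet and tuft markers did, yet within Lgr5-WT they were higher in mouse 1, whereas the sums of those 3 lists were higher in mouse 2. Within Lgr5-CREPTKO, Gkn3 was slightly higher in mouse 1, and so was the tuft sum (17.1 against 7.22 FPKM). Kif12 was higher in mouse 2, with the enteroendocrine and goblet sums. The part of these cell types in the level of Gkn3 and Kif12 was not tested. Against the stem cell receptor itself, there were 269 and 244 FPKM of Gkn3 for every 100 FPKM of Lgr5 in the Lgr5-WT mice and 104 and 83.1 in the Lgr5-CREPTKO mice.

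**Figure D5:**
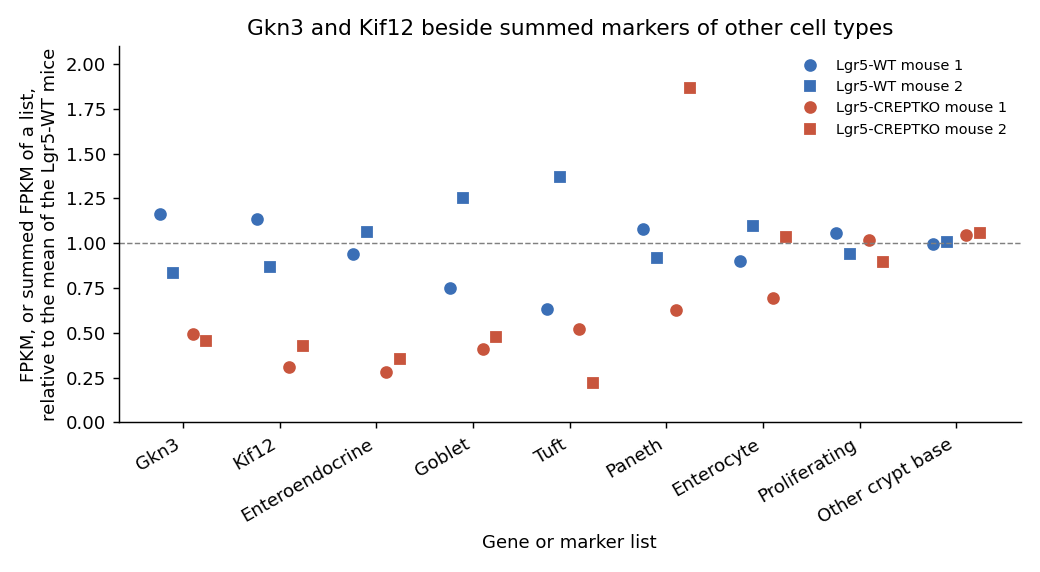
FPKM of Gkn3 and Kif12 and summed FPKM of 7 marker lists in each mouse, divided by the mean of the 2 Lgr5-WT mice (dashed line at 1). Both Lgr5-CREPTKO mice lie below both Lgr5-WT mice for Gkn3, Kif12 and the enteroendocrine, goblet and tuft lists, while the other crypt base list lies close to 1 in all 4 mice and the Paneth list is highest in Lgr5-CREPTKO mouse 2. Clca3b makes the largest part of the other crypt base sum.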

How the data were processed

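RNA of sorted Lgr5-GFP high cells from 2 Lgr5-WT and 2 Lgr5-CREPTKO mice was analysed. The authors deposited 1 table of FPKM values, rounded to 2 decimals, with 1 column per mouse matching the sample titles. There were 0 other columns of per-sample values. The submitters' processing notes name HISAT, Bowtie2, RSEM and the genome build mm10, and the study's methods describe mapping with Bowtie2 to transcripts of GRCm38.p6 and quantification with RSEM. FPKM is relative to the whole library of a mouse, and the table holds no counts, so the count model of the study was replaced by limma 3.58.1 in R 4.3.3.

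Values were taken as log2(FPKM + 0.5), which understates the change of low genes. Genes averaging 0.5 FPKM or more entered the fit, the model was fitted with lmFit and eBayes with an intensity trend, and p-values were adjusted over 12621 genes (Benjamini-Hochberg). The threshold was an adjusted p under 0.05, which 337 genes passed lower and 52 higher. With the study's additional limit of 1 on the absolute log2 fold change, 128 were lower and 16 higher. Fold changes are Lgr5-CREPTKO minus Lgr5-WT, and the 95% interval uses the moderated SE. The smallest exact permutation p for 2 mice against 2 is 0.333, so no such test was used. The p-values set each difference between genotypes against a variance between these mice that eBayes moderates with the trend over all genes. They do not measure the spread of a single gene alone.

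The 7 markers and all gene lists were chosen with earlier results of these data known. The genes named were the 7 markers, Rprd1b, Lgr5 and Ascl2, the genes called in each list (at most 6, by size) with the 2 most abundant, and for each marker the 3 genes nearest in profile. The other genes named (the ends of a list's range, chromosomal neighbours, relatives, Clu, Dclk1, Igfbp4 and Soat1) were added to that rule with their values already seen. Fragments were estimated from the step between the lowest FPKM values of genes with transcripts of 1400 to 3000 bases. Mice numbered alike are different animals, and their deviations did not go together (correlation across genes -0.0266). Promoters came from the RefSeq table for GRCm38.p6, which held 5 of the 7 markers. Coordinates are RefSeq's, and 17637 of 18436 symbols were found there. The fit was also run on simulated data in which 200 genes were changed, with the same dispersion and transcript length for every gene. That run does not bear on calls near the threshold in these mice. Python 3.11.15, pandas 2.3.3 and numpy 2.4.6 were used for the other steps. The study's crypt, irradiation and ChIP-seq experiments were not analysed here.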

Additional observations from a re-analysis of the deposited data

How the results depend on the processing

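The pseudocount, the filter, the scaling, the intensity trend, a replicate block and the mice included were varied. The 7 log2 fold changes kept their sign in 12 of 12 alternatives: Gkn3 ran from -1.29 to -0.82, Kif12 from -1.58 to -1.16, Prom1 from -0.32 to -0.07, and Olfm4 from 0.05 to 0.15. Gkn3 was not called at a pseudocount of 1 or under either scaling, and Kif12 was not called with the replicate block. Of 84 recomputed differences, 79 moved by less than the SD between mice. The 5 that moved more did so under scaling, which moved the median over all genes from -0.01 (to 0.06 with libraries scaled to the same sum, 0.02 at the same upper quartile): Olfm4 to 0.15 and 0.11, Smoc2 to 0.25, Cdca7 to 0.22 and Msi1 to 0.20.

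Counts of calls depended more on the settings. Of the 7 markers, 2 were called lower, but 1 at a pseudocount of 1, 1 under either scaling and 1 with the replicate block. With no filter or with no intensity trend, 0 were called. Among all genes, 337 lower and 52 higher became 168 and 15 with the replicate block (the numbers share no animal). They became 4 and 0 with no intensity trend, and 0 and 0 with no filter. With libraries scaled to the same sum, they became 243 and 85, so that 25.9% rather than 13.4% of calls were higher. Of the other crypt base genes, 2 were called higher at the same sum and 1 (Soat1) at the same upper quartile, and of the reserve stem cell genes 1 (Clu) at a filter of 1 FPKM and 1 (Clu) at the same sum. Of the markers of other cell types, 8 were called lower, but 0 with no filter and 0 with no intensity trend. A fit without 1 mouse assumes that the lone mouse varies like those of the other genotype. Calls of such fits are not given, because 1 mouse in a genotype is too few to judge them. The cause of these changes was not tested. Only 2 mice of each genotype limit the precision, more than the depth does for Gkn3 and Kif12.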
